A study of Mus musculus with 7 samples.

Results

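The genes described are 55 of the 49585 listed in the deposited tables, chosen by symbol for fatty acid uptake, activation, oxidation and storage. They comprise 11 genes of uptake and activation, 24 placed with beta-oxidation, 10 of triglyceride synthesis and 10 of lipid droplets and lipolysis. The 24 include Pdk4, a kinase gene, and Ucp2, a membrane carrier gene, whose products are not enzymes of beta-oxidation. A row was found for each of the 55 genes. They were followed in MS-1 cells, an immortalised mouse endothelial line from pancreatic islets grown in DMEM, in 3 control libraries labelled WT and 4 labelled LPL overexpression. Lipoprotein lipase (LPL) is the enzyme that frees fatty acids from triglyceride-rich lipoproteins, so the comparison asks how genes for handling those fatty acids stood when the enzyme was made in excess. From the labels it is not known which species' LPL sequence was used, how it entered the cells, or whether a single clone was profiled. An empty-vector library was not analysed here, and separate cultures are not stated for the replicates, so p-values measure the spread between these libraries, which may be technical.

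A fatty acid reaches the cytosol by way of CD36, fatty acid transport proteins (the Slc27a genes) and intracellular binding proteins (the Fabp genes), and long-chain acyl-CoA synthetases (the Acsl genes) trap it as acyl-CoA. From there it is either carried into mitochondria by the carnitine palmitoyltransferases and shortened by rounds of beta-oxidation, or esterified to glycerol and stored as triglyceride in lipid droplets, from which lipases release it again. In capillary endothelium, CD36 and FABP4 are known for passing fatty acids to the tissue beneath, and fatty acid oxidation is known to feed nucleotide synthesis and redox balance in growing endothelial cells.

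The libraries held between 24328418 and 29210847 counted reads in the sense orientation, and Pearson's r of log2 counts per 1000000 reads (CPM) across genes was from 0.996 to 0.997 within groups and at most 0.962 between them. As a check of the labels, Lpl had 1, 1 and 6 reads in the controls and 10867, 12691, 10901 and 12753 in the LPL overexpression libraries. The endothelial markers Pecam1, Cdh5, Kdr, Tek, Tie1, Erg, Emcn and Egfl7 were present in every library, with a sum between 6173 and 6269 CPM in the controls and between 5263 and 5407 CPM with LPL overexpression, where 6 of the 8 were lower and 1 higher by the test used throughout. The 4 LPL overexpression libraries also carried pigment cell genes. All 10 markers of that lineage were higher there, their sum lay between 1342 and 1405 CPM against between 3.19 and 3.76 CPM in the controls, and Tyrp1, Dct, Mlana, Tyr, Sox10 and Oca2 had no control read. No adipocyte marker had more than 2 reads in any library, with Lep and Cfd at 0 in all 7, and muscle markers did not exceed 3 reads or hepatocyte markers 5. The macrophage and blood list was at or near 0 apart from Cd68 (74.7 ± 3.03 and 98.7 ± 4.27 CPM), and Cela1, with 2 reads over the controls and 69 over the LPL overexpression libraries, was the member of the exocrine and islet list that passed the test. Because these are bulk samples, fewer cells of a type and less RNA per cell cannot be told apart. The same limit holds for the fatty acid genes below, for those that fell as for those that rose.

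Most of the machinery was present in control cells. Per transcript length, 41 of the 55 genes had a control mean of at least 10 transcripts per 1000000 (TPM), 8 lay from 1 to under 10 and 6 lay under 1. The genes near 0 were Cd36, the scavenger receptor that takes up fatty acids, with 0, 1 and 0 reads in control replicates 1 to 3 and 0, 0, 1 and 0 in LPL overexpression replicates 1 to 4, and Fabp3, the heart-type binding protein, with 0 reads in all 7. Over a group, a count of 0 allows up to 3 counts, which is 0.0372 CPM in the controls. G0s2, an inhibitor of adipose triglyceride lipase, had no control read and 1, 0, 1 and 2 reads in LPL overexpression replicates 1 to 4, and Ucp2, an inner mitochondrial membrane carrier, had 1, 3 and 1 against 3, 4, 2 and 7. These 4 genes had too few reads to be tested, and any difference in them was not detectable at this depth. The other genes under 1 TPM in the controls, Fabp5 and Mgll, were tested and are described with their steps.

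**Figure D1:**
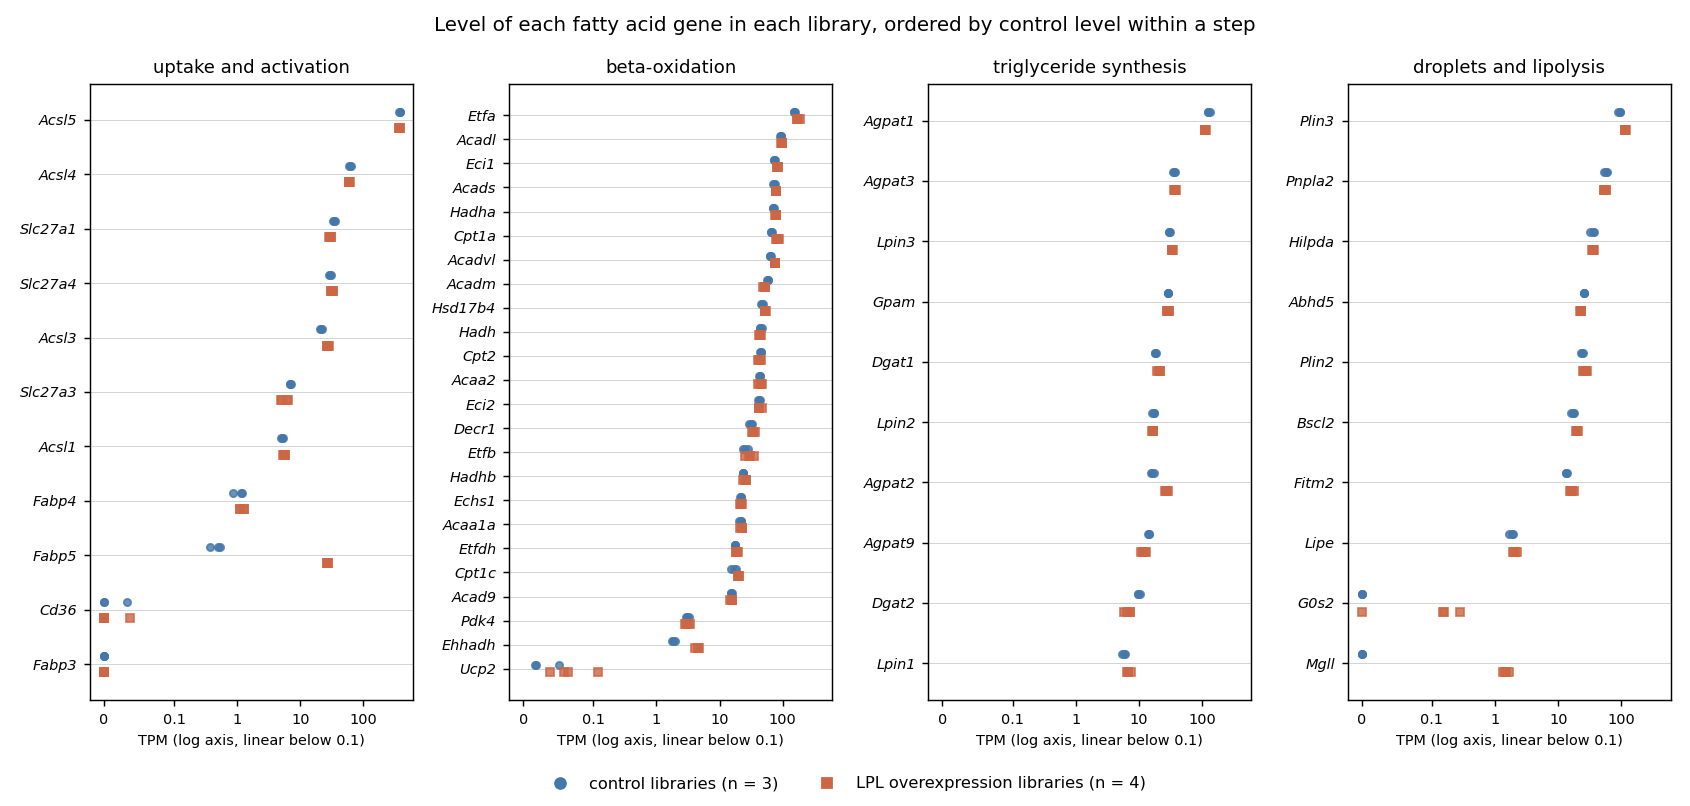
TPM of each of the 55 genes (log axis, linear below 0.1) in the 3 control libraries (circles) and 4 LPL overexpression libraries (squares), ordered by control level within each step. The groups lie close together for most genes, while Fabp5 and Mgll stand apart, at 0.464 ± 0.0795 and 0 TPM in the controls and 26.8 ± 0.789 and 1.48 ± 0.124 TPM with LPL overexpression.

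With LPL overexpression, 19 of the 51 tested genes rose and 8 fell, while 24 did not pass (edgeR's quasi-likelihood test, Benjamini-Hochberg adjusted over 13639 genes, threshold 0.05). The 27 changed genes are 52.9% of those tested, and over all genes 43.2% changed, 21.9% higher and 21.3% lower. Among genes with a mean of at least 10 CPM the shares were 53.5% of 43 fatty acid genes and 48.4% of all 9013 genes. In that range 39.5% of the fatty acid genes were higher and 14.0% lower, where all genes gave 21.1% and 27.3%. Of all changed genes 50.7% were higher, a share that became 65.1% with scaling to library size alone and 61.5% on TPM values, while no changed fatty acid gene turned its direction in any of the 17 alternatives tried.

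Most of the changes were small. The median log2 fold change of the 51 genes was 0.09, against 0.00 for all genes tested, and 20 of the 27 changed genes moved by less than 0.3 on the log2 scale. The other 7 were Fabp5, Mgll, Ehhadh, Agpat2 and Acsl3, which rose, and Dgat2 and Slc27a3, which fell. They make up 13.7% of the genes tested, and 16.1% of all genes changed by as much. Changes of at least 1 on the log2 scale were found in 3 fatty acid genes, Fabp5, Mgll and Ehhadh, and in 5.04% of all genes. The groups did not overlap in 28 of the 51, 20 with LPL overexpression higher and 8 with it lower, and over all genes 44.6% stood apart in this way, 22.8% higher and 21.8% lower. A log2 fold change, also called a log2 difference here, is LPL overexpression minus control, with its standard error (SE).

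**Figure D2:**
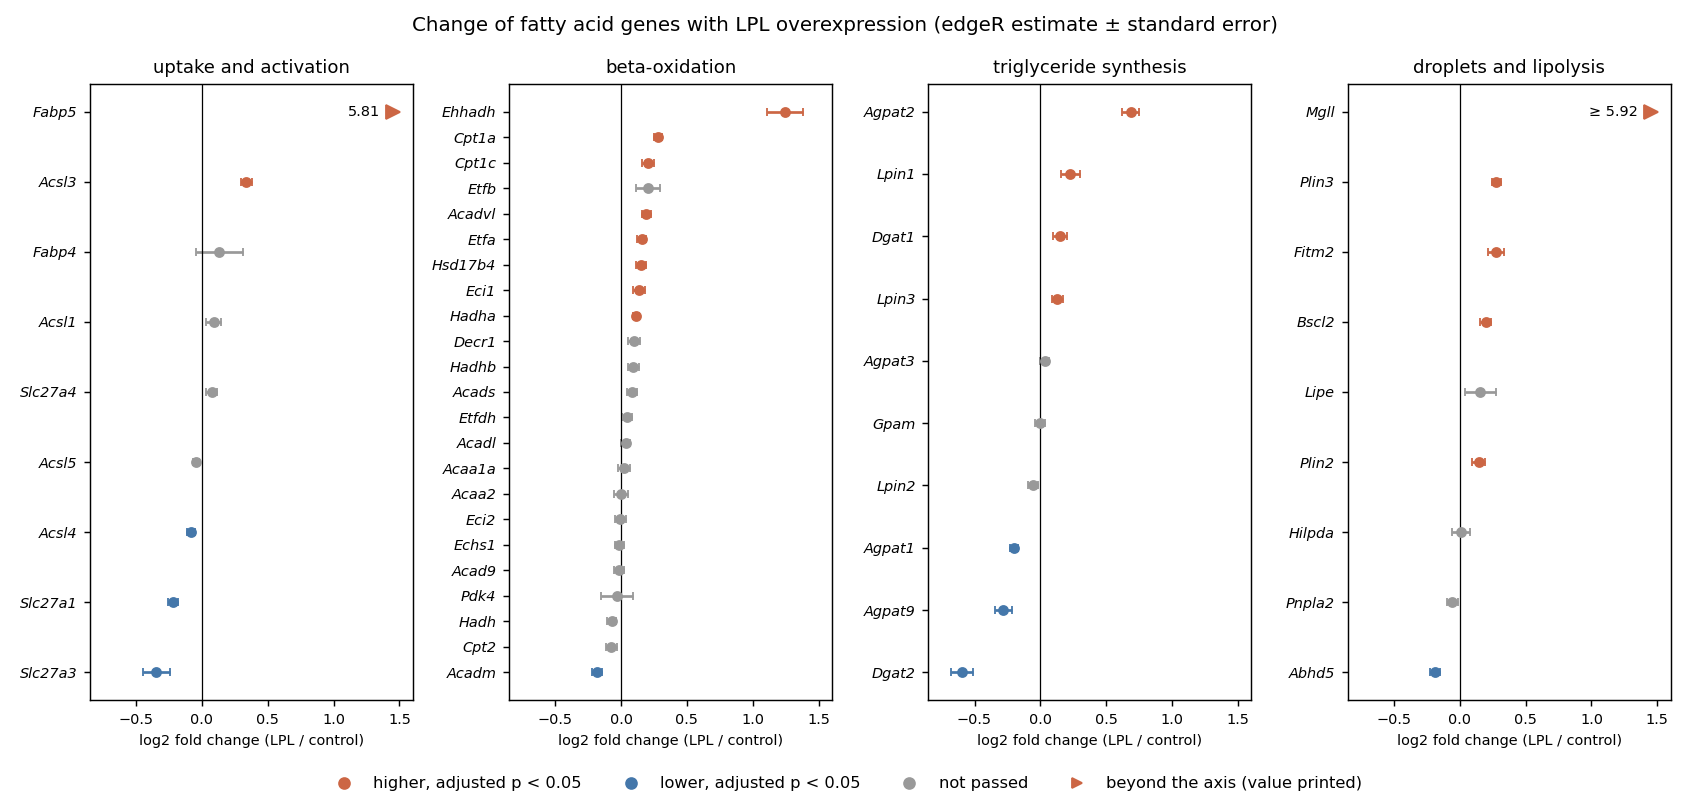
Log2 fold change (LPL overexpression over control, edgeR, ± standard error) of the 51 tested genes by step, coloured by the call. Rises outnumber falls in beta-oxidation (8 against 1, 39.1% of those tested) and in droplets and lipolysis (5 against 1, 66.7%). Over all genes 43.2% changed, 21.9% higher and 21.3% lower. The arrowheads mark Fabp5 (5.81) and Mgll (at least 5.92) beyond the axis.

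Of the 11 uptake and activation genes 9 were tested, of which Fabp5 and Acsl3 rose, Slc27a1, Slc27a3 and Acsl4 fell and 4 did not pass (median log2 fold change 0.08). The 5 changed genes are 55.6% of those tested, against 43.2% of all genes. Fabp5, the epidermal-type fatty acid binding protein gene (chr3:10012548-10016607, plus strand, mm10), had 11, 16 and 14 reads in control replicates 1 to 3 and 691, 885, 731 and 779 in LPL overexpression replicates 1 to 4. Its levels were 0.407, 0.580 and 0.537 CPM in the controls and 28.1, 30.0, 29.0 and 28.0 CPM with LPL overexpression, so that each LPL overexpression library lay far above every control. The mean went from 0.508 ± 0.0899 to 28.8 ± 0.929 CPM (SD, n = 3 and n = 4), a log2 difference of 5.81 (SE 0.11), or 56.1-fold (adjusted p = 3.24e-42 in edgeR). Fabp4, the adipocyte-type binding protein gene that is also a capillary endothelial marker (chr3:10204088-10208576, the same chromosome), stood at 1.59, 1.67 and 1.19 CPM in the controls and 1.50, 1.76, 1.51 and 1.73 CPM with LPL overexpression. Those groups overlapped, and its log2 difference of 0.13 (SE 0.18) did not pass (adjusted p = 0.580 in edgeR). In the 4 libraries with high Fabp5 the 10 pigment cell markers summed to 1342 CPM or more, and the part of such cells in its rise was not tested.

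The fatty acid transport proteins are membrane proteins that couple entry to acyl-CoA formation, and of the 3 among the 55 genes Slc27a1 and Slc27a3 fell and Slc27a4 did not pass. Slc27a1 fell from 60.9 ± 1.51 to 52.5 ± 1.34 CPM, a log2 difference of -0.22 (SE 0.04). Slc27a3 had 5.44, 5.69 and 5.49 CPM in the controls and 4.79, 4.00, 3.81 and 4.86 CPM in the LPL overexpression libraries, where all 4 were below the lowest control and replicates 2 and 3 were lowest. Its log2 difference of -0.35 (SE 0.10) passed with adjusted p = 0.00472 in edgeR. Slc27a4 was at 40.1 ± 1.50 and 42.3 ± 1.67 CPM and did not pass (adjusted p = 0.132 in edgeR), but did so with upper-quartile factors (adjusted p = 0.0453) and library size alone (0.0183).

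Of the acyl-CoA synthetases, Acsl5 was by far the most abundant per length, at 377 ± 6.78 TPM in the controls, where Acsl4 had 61.9 ± 1.95, Acsl3 21.1 ± 0.737 and Acsl1 5.13 ± 0.182 TPM. Acsl5 stood at 368, 364 and 360.3 CPM in the controls and 344, 360.1, 358 and 350.2 CPM with LPL overexpression. All 4 of the latter were below the lowest control by a narrow margin, and the log2 fold change of -0.04 (SE 0.02) did not pass (adjusted p = 0.146 in edgeR). Acsl3, a synthetase found on the endoplasmic reticulum and on nascent droplets, rose from 26.8, 28.5 and 29.0 CPM to 37.0, 35.0, 35.9 and 34.5 CPM with no overlap, a log2 difference of 0.34 (SE 0.04) (adjusted p = 2.35e-09 in edgeR). Acsl1, the main form of fat and heart, was at 16.9, 15.9 and 16.7 CPM and 17.4, 18.1, 16.5 and 18.0 CPM, groups that overlapped (adjusted p = 0.208 in edgeR). Acsl4, which prefers arachidonate, had 102 ± 2.74 and 96.6 ± 2.24 CPM with overlapping groups, and its log2 fold change of -0.08 (adjusted p = 0.0209 in edgeR) no longer passed with DESeq2 (adjusted p = 0.0589) or in 8 other alternatives, among them leaving out control replicate 1 (0.128) or 3 (0.0939) or replicate 1 (0.0668) or 2 (0.0594) of LPL overexpression.

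The makeup of the families followed from these values. Acsl5 made up 81.0 ± 0.360% of the summed Acsl TPM in the controls and 80.1 ± 0.357% with LPL overexpression, and the sum itself was 466 ± 7.47 and 466 ± 7.91 TPM. The sum over the 7 Fabp genes, only 1.62 ± 0.104 TPM in the controls, was 30.4 ± 0.918 TPM with LPL overexpression. Fabp5 was 24.4, 30.4 and 31.1% of that sum in the controls and 87.9, 87.5, 90.0 and 87.1% in the LPL overexpression libraries, with no overlap between the groups. The control shares rest on few reads, since a single read of Fabp1 made up 14.3% of the sum in control replicate 3.

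Of the 24 beta-oxidation genes 23 were tested, of which 8 rose, 1 fell and 14 did not pass, with a median log2 fold change of 0.09. The 9 changed genes are 39.1% of those tested, 34.8% higher and 4.35% lower. All genes gave 43.2%, 21.9% and 21.3%, and 8 of the 9 moved by less than 0.3 on the log2 scale. Cpt1a, which encodes the gatekeeping enzyme that loads acyl groups onto carnitine at the outer mitochondrial membrane (chr19:3323301-3385732, plus strand), had 86.6, 89.3 and 87.1 CPM in the controls and 107, 103, 105 and 111 CPM in the LPL overexpression libraries. All 4 lay above the highest control, and the log2 difference of 0.28 (SE 0.03) corresponded to a 1.21-fold rise (adjusted p = 8.88e-11 in edgeR). Cpt1c, the brain-type relative, rose from 28.9 ± 2.21 to 33.4 ± 0.514 CPM, whereas Cpt2, the partner enzyme of the inner membrane, was at 32.6 ± 0.841 and 30.9 ± 1.24 CPM and did not pass (adjusted p = 0.146 in edgeR). Cpt1a was 79.3 ± 1.20% of the summed Cpt1 TPM in the controls and 80.2 ± 0.640% with LPL overexpression. The 4 libraries with higher Cpt1a are those whose pigment cell markers summed to 1342 CPM or more, the part of which was not tested.

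Among the acyl-CoA dehydrogenases, which open each round of the spiral, the very-long-chain and medium-chain genes moved in opposite directions. Acadvl, for very-long-chain substrates, rose from 52.8 ± 0.867 to 60.3 ± 0.759 CPM, a log2 difference of 0.19 (SE 0.04). Acadm, for medium chains (chr3:153922357-153944632, minus strand), had 69.5, 67.8 and 70.2 CPM in the controls and 62.5, 62.7, 61.8 and 56.6 CPM with LPL overexpression, all 4 below the lowest control and replicate 4 the lowest. Its log2 difference of -0.18 (SE 0.04) made it the 1 gene of the step that fell (adjusted p = 4.43e-05 in edgeR). Acadl, Acad9 and Acads did not pass, with 56.8 ± 1.34 and 58.1 ± 0.643 CPM for Acadl, 38.5 ± 1.06 and 38.1 ± 1.23 CPM for Acad9 and 50.2 ± 1.95 and 53.3 ± 0.384 CPM for Acads. Leaving out control replicate 3 brought Acads past the threshold (adjusted p = 0.0178), as did upper-quartile factors, library size alone and TPM values. Summed over the 5 genes the level was 302 ± 2.42 TPM in the controls and 316 ± 2.39 TPM with LPL overexpression, and the share of Acadm was 19.1 ± 0.236% and 16.3 ± 0.671%.

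Ehhadh, the peroxisomal bifunctional enzyme and a classical target of the receptor PPARα, showed the largest change of the step from a low level (chr16:21761287-21787844, minus strand). It had 48, 45 and 44 reads in the controls and 102, 110, 106 and 114 with LPL overexpression, or 1.78, 1.63 and 1.69 CPM and 4.14, 3.73, 4.20 and 4.10 CPM. The groups stood well apart, with a log2 difference of 1.25 (SE 0.14) and a 2.37-fold higher mean (adjusted p = 4.70e-11 in edgeR). Ppara, the gene of PPARα, had at most 2 reads in a library. In the 4 libraries with higher Ehhadh the pigment cell markers summed to 1342 CPM or more, the part of which was not tested. Hsd17b4, the other peroxisomal bifunctional enzyme, rose from 48.7 ± 1.86 to 54.0 ± 0.895 CPM. Acaa1a, the peroxisomal thiolase, was at 29.0 ± 1.52 and 29.5 ± 0.774 CPM and did not pass (adjusted p = 0.760 in edgeR).

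The 250 bases before the RefSeq start (GRCm38.p6, the assembly behind mm10) are shown for Cpt1a (chr19:3323051-3323300, plus strand) and Ehhadh (chr16:21787835-21788084, minus strand), the 2 oxidation genes with the largest rises, 5′ to 3′ along each gene's strand. Capitals mark a match on either strand to AGGTCA, a half-site of PPARs and other nuclear receptors, or to the E-box CACGTG.
Cpt1a: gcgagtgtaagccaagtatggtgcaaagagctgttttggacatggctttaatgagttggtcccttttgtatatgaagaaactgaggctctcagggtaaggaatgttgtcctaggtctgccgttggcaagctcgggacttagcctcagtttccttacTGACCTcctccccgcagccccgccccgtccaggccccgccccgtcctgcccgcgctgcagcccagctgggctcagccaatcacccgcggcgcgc
Ehhadh: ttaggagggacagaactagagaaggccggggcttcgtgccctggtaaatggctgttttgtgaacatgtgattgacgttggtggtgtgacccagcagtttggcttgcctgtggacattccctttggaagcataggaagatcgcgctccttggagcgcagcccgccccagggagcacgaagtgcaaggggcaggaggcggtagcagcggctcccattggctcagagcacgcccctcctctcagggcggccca
The Cpt1a window held 1 match to AGGTCA, on the opposite strand and 94 to 89 bases before the start, and the Ehhadh window held no match to either. Of the 60 windows listed for 47 of the 55 genes 20.0% held AGGTCA, against 14.0% of all 32851 windows of that length, and the shares for CACGTG were 6.67% and 6.02%. A match describes these letters and not a bound site, and a window without a match says nothing of sites outside it.

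In the steps after the dehydrogenases, the trifunctional protein subunit Hadha had 189.6, 186 and 187 CPM in the controls and 203, 207, 202 and 198 CPM with LPL overexpression. Every LPL overexpression library exceeded every control, although the log2 difference of 0.11 (SE 0.03) was small (adjusted p = 2.22e-04 in edgeR). Its partner Hadhb, transcribed from the opposite strand next to Hadha on chromosome 5, was at 47.2 ± 0.874 and 50.3 ± 3.10 CPM and did not pass (adjusted p = 0.0715 in edgeR), but passed with upper-quartile factors, with library size alone and when LPL overexpression replicate 1 was left out (adjusted p = 0.00744). The short-chain and matrix enzymes Hadh, Echs1 and Acaa2 and the isomerase Eci2 did not pass, with log2 differences from -0.07 to 0.00. Over the 7 libraries Hadh ranged from 63.2 to 70.0 CPM, Echs1 from 53.2 to 55.8, Acaa2 from 18.7 to 21.1 and Eci2 from 32.5 to 36.2 CPM. Eci1, the isomerase for unsaturated chains, was at 24.7 ± 0.723 and 27.1 ± 1.08 CPM. Its log2 fold change of 0.14 passed (adjusted p = 0.0161 in edgeR) but not with DESeq2 (adjusted p = 0.0641), without control replicate 2 (0.0977) or without LPL overexpression replicate 1 (0.0516). Decr1, the dienoyl-CoA reductase, was at 36.9 ± 2.35 and 39.4 ± 1.79 CPM and did not pass (adjusted p = 0.0677 in edgeR), though it passed when control replicate 2 (0.0262) or replicate 3 (0.0325) or 4 (0.0423) of LPL overexpression was left out.

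Electrons from the dehydrogenases pass through the electron transfer flavoprotein, and Etfa, its alpha subunit, had the highest level per length of the step, 153 ± 1.33 TPM in the controls. Etfa had 84.7, 86.1 and 87.3 CPM in the controls and 93.5, 103, 91.9 and 95.1 CPM with LPL overexpression, without overlap and with replicate 2 highest, a log2 difference of 0.16 (SE 0.03) (adjusted p = 1.12e-04 in edgeR). The beta subunit gene Etfb was at 9.19 ± 0.971 and 10.5 ± 1.50 CPM and did not pass (adjusted p = 0.0873 in edgeR), but passed without LPL overexpression replicate 4 (adjusted p = 0.00144) or control replicate 3 (0.0229). Etfdh, the oxidoreductase that hands the electrons to ubiquinone, was at 40.7 ± 0.364 and 42.0 ± 1.42 CPM (adjusted p = 0.388 in edgeR). Pdk4, the kinase that spares glucose when fatty acids are burned and a PPAR target, was at 3.35 ± 0.160 and 3.27 ± 0.268 CPM (adjusted p = 0.873 in edgeR).

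All 10 triglyceride synthesis genes were tested, of which 4 rose, 3 fell and 3 did not pass, with a median log2 fold change of 0.01. The share changed was 70.0%, against 43.2% of all genes. The largest changes were a rise of Agpat2 and a fall of Dgat2. For the opening acylation of glycerol 3-phosphate, Gpam, the mitochondrial enzyme, was at 33.6 ± 0.0832 and 33.5 ± 1.38 CPM (adjusted p = 0.957 in edgeR). Agpat9, also called Gpat3, of the endoplasmic reticulum, fell from 15.2 ± 0.306 to 12.5 ± 0.845 CPM, a log2 difference of -0.28 (SE 0.06). Gpat4, which is not among the 10, was at 148 ± 1.79 and 147 ± 1.30 CPM and did not pass (adjusted p = 0.841 in edgeR). Gpat4 made up 62.8 ± 0.312% of the summed TPM of Gpam, Gpat2, Agpat9 and Gpat4 in the controls. With LPL overexpression its share was 64.1 ± 1.25%. The share of Agpat9 was 12.3 ± 0.255% and 10.4 ± 0.553%, and the sum was 115 ± 1.75 and 114 ± 1.86 TPM. At the next acylation, Agpat1, the most abundant gene of the step per length at 127 ± 4.51 TPM, went from 120.0, 116 and 113 CPM to 99.6, 102, 103 and 101 CPM, all 4 below the controls, with a log2 difference of -0.20 (SE 0.03) and adjusted p = 9.52e-08 in edgeR. Agpat2, the isoform of adipose tissue (chr2:26593057-26604417, minus strand), had 11.3, 10.3 and 10.7 CPM in the controls and 18.3, 16.6, 16.9 and 17.6 CPM with LPL overexpression. Each of the 4 exceeded every control, and the log2 difference of 0.69 (SE 0.06) was a 1.61-fold rise (adjusted p = 2.55e-13 in edgeR). Agpat3 did not pass, at 83.1 ± 1.84 and 84.9 ± 2.31 CPM.

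The share of Agpat2 in the summed TPM of Agpat1 to Agpat5 was accordingly 7.23 ± 0.278% in the controls and 12.0 ± 0.532% with LPL overexpression, and that of Agpat1 55.5 ± 0.878% and 49.9 ± 0.725%. The sum was 228 ± 4.53 TPM (SD, n = 3) and 225 ± 1.43 TPM (SD, n = 4). Which cells gave the added Agpat2 reads was not tested, and the pigment cell markers summed to between 1342 and 1405 CPM in the same libraries.

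The lipins, which dephosphorylate phosphatidate to diacylglycerol, rose slightly or did not pass. Lpin1 rose from 10.1 ± 0.513 to 11.8 ± 0.637 CPM and Lpin3, the lipin with the highest level per length here, from 34.5 ± 1.12 to 37.7 ± 0.489 CPM, while Lpin2 was at 63.5 ± 2.88 and 61.0 ± 0.945 CPM (adjusted p = 0.210 in edgeR). Without control replicate 2 the calls of Lpin1 (adjusted p = 0.0621), Lpin3 (0.0625) and Dgat1 (0.0712) ended, which left Agpat2 as the 1 gene of the step that rose.

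The acyltransferases of the last step, which make triglyceride from diacylglycerol, moved in opposite directions. Dgat2 (chr7:99153658-99182719, minus strand) had 9.18, 9.78 and 9.17 CPM in the controls and 5.36, 6.71, 6.74 and 5.94 CPM with LPL overexpression, all 4 below the lowest control. The log2 difference of -0.60 (SE 0.08) put the mean at 0.661 times the control mean (adjusted p = 3.63e-08 in edgeR), the largest fall among the 51 genes. Dgat1 had 16.7, 17.1 and 17.6 CPM and 19.6, 17.7, 19.1 and 19.5 CPM, groups that did not overlap although LPL overexpression replicate 2 lay just above the highest control. Its log2 difference of 0.15 (SE 0.06) passed (adjusted p = 0.0266 in edgeR) but not with DESeq2 (adjusted p = 0.089), without control replicate 1 (0.108) or without LPL overexpression replicate 1 (0.0697), 3 (0.0521) or 4 (0.0524). The ratio of Dgat1 to Dgat2 TPM was 1.83, 1.76 and 1.93 in the controls and 3.69, 2.66, 2.87 and 3.32 with LPL overexpression, every one of the latter being higher. The summed level was 28.2 ± 0.402 and 27.3 ± 0.790 TPM.

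**Figure D3:**
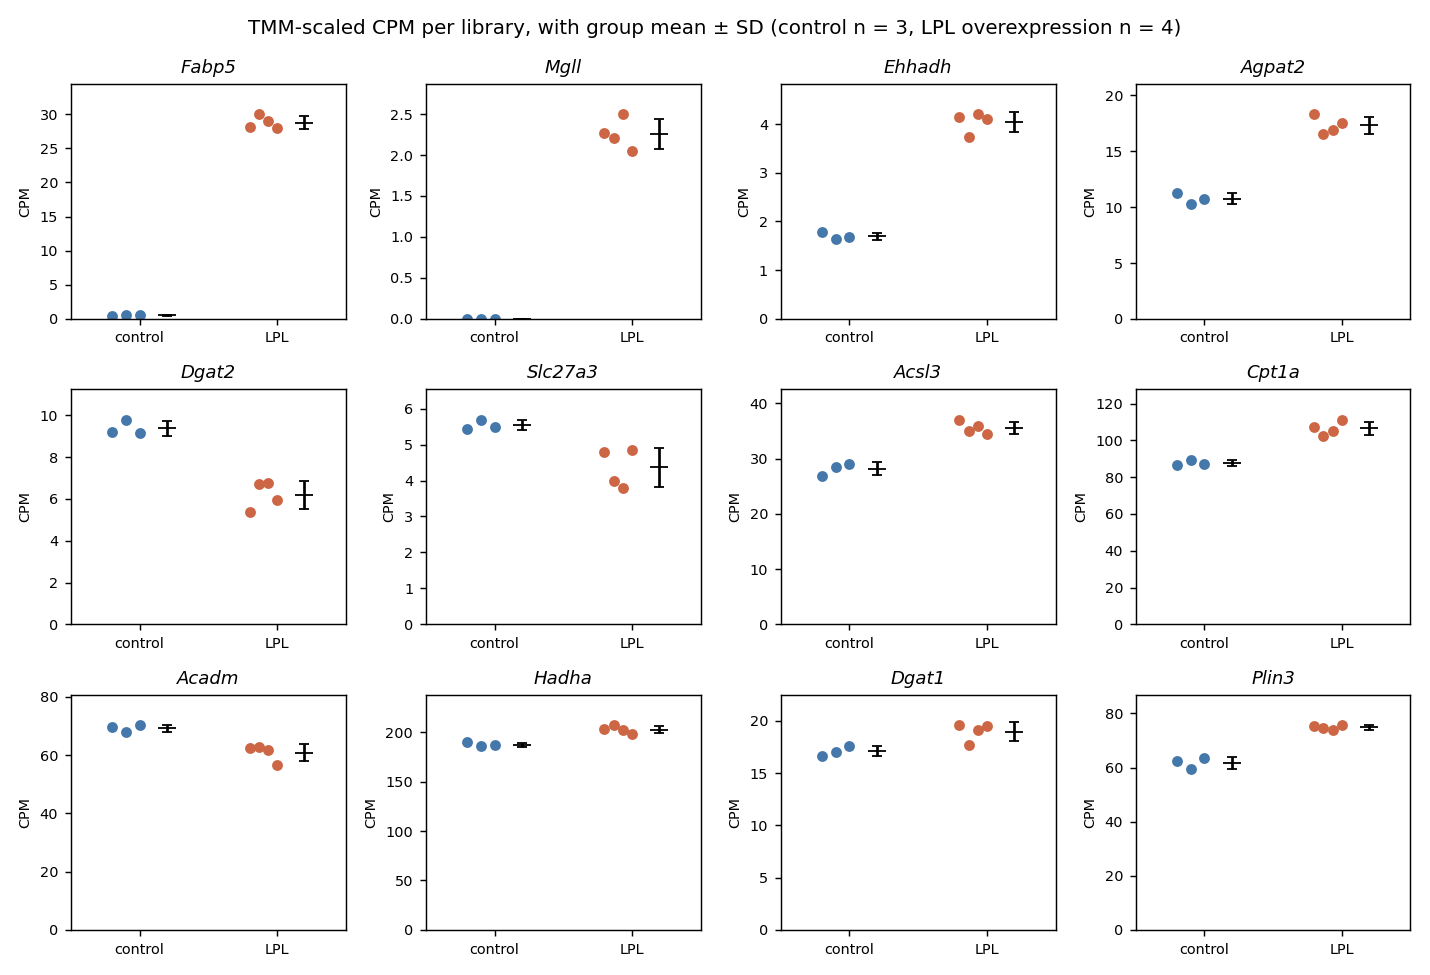
TMM-scaled CPM in each library (points) of Fabp5, Mgll, Ehhadh, Agpat2, Dgat2, Slc27a3, Acsl3, Cpt1a, Acadm, Hadha, Dgat1 and Plin3, with the group mean ± SD beside them (control n = 3, LPL overexpression n = 4) and axes from 0. These 12 were chosen among changed genes after their values were seen, and all have groups that do not overlap. The control points of Fabp5 and Mgll lie at or near 0, while Hadha and Dgat1 differ by little.

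Of the 10 droplet and lipolysis genes 9 were tested, of which Mgll, Plin3, Plin2, Fitm2 and Bscl2 rose, Abhd5 fell and 3 did not pass (median log2 fold change 0.16). The share changed was 66.7%, against 43.2% of all genes. Mgll, the gene of monoglyceride lipase (chr6:88724412-88828360, plus strand), which completes triglyceride breakdown and degrades the endocannabinoid 2-arachidonoylglycerol, had 0 reads in each of the 3 controls and 56, 65, 63 and 57 reads in the LPL overexpression libraries. Its level there was 2.27, 2.20, 2.50 and 2.05 CPM, at least 60.7-fold higher than the control floor of 3 counts over the group (adjusted p = 2.67e-19 in edgeR). Per length it was among the lower genes, at 1.48 ± 0.124 TPM. All 4 libraries with Mgll reads carried the pigment cell genes, and no test was made of which cells gave them.

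The 250 bases before the Mgll start that comes earlier of the 2 listed (chr6:88724162-88724411, plus strand, GRCm38.p6, from RefSeq) are shown because the gene had no read in the controls and reads in every LPL overexpression library, with capitals as for Cpt1a.
Mgll: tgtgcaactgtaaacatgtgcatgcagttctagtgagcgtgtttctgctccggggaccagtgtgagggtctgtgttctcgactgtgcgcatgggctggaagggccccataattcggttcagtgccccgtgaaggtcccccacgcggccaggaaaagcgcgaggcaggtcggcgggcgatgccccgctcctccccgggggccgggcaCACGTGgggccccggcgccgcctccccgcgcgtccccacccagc
This window held 1 match to CACGTG, 44 to 39 bases before the start, and none to AGGTCA. The other listed Mgll window held neither, and the motifs were chosen with their matches seen. The other genes of the 55 with CACGTG in a listed window were Lipe, Lpin2 and Slc27a1, of which Slc27a1 fell and the others did not pass.

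Of the perilipins, the coat proteins of droplets, only Plin2 and Plin3 were present to any degree, while Plin1, Plin4 and Plin5 had at most 1 read in any library. Plin3 was the most abundant gene of the step per length, at 93.3 ± 3.32 TPM in the controls. It had 62.4, 59.3 and 63.4 CPM in the controls and 75.3, 74.4, 73.9 and 75.6 CPM with LPL overexpression, with no overlap and a log2 difference of 0.28 (SE 0.03) (adjusted p = 1.98e-09 in edgeR). Plin2, whose protein is stable only on droplets, had 25.1, 26.6 and 25.1 CPM and 26.2, 30.1, 29.5 and 27.3 CPM, with LPL overexpression replicate 1 below the highest control. Its log2 difference of 0.14 (SE 0.05) passed (adjusted p = 0.0129 in edgeR) but not with DESeq2 (adjusted p = 0.0555) or when control replicate 1 (0.0596) or replicate 2 (0.062) or 3 (0.0506) of LPL overexpression was left out. Plin3 was 79.6 ± 1.07% of the summed perilipin TPM in the controls and 81.1 ± 1.12% with LPL overexpression, shares that overlapped between the groups.

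Fitm2 and Bscl2 rose and Hilpda did not pass. Fitm2, a protein of the endoplasmic reticulum that promotes budding, rose from 16.2 ± 0.485 to 19.7 ± 1.34 CPM, with a log2 difference of 0.28 (SE 0.06), and Bscl2, the gene of seipin, which sits where droplets meet that membrane, rose from 30.6 ± 1.16 to 35.1 ± 1.34 CPM, with one of 0.20 (SE 0.04). Hilpda, a hypoxia-inducible inhibitor of triglyceride lipase, was at 11.7 ± 0.968 and 11.8 ± 0.353 CPM (adjusted p = 0.933 in edgeR). The pigment cell marker sum of at least 1342 CPM belongs to the same 4 libraries, and its part in these rises was not tested.

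The lipase genes Pnpla2 and Lipe did not pass, and Abhd5 fell. Pnpla2, the gene of adipose triglyceride lipase, which makes the opening cut, had 53.6, 52.6 and 50.2 CPM in the controls and 48.3, 48.7, 51.1 and 52.7 CPM with LPL overexpression, groups that overlapped (log2 fold change -0.05, SE 0.04, adjusted p = 0.275 in edgeR). Abhd5, its activator, fell from 46.6 ± 0.427 to 41.0 ± 0.698 CPM, a log2 difference of -0.19 (SE 0.04) (adjusted p = 9.15e-05 in edgeR). Of the 8 endothelial markers 6 were also lower with LPL overexpression, and the part of cell makeup in the fall of Abhd5 was not tested. Lipe, the gene of hormone-sensitive lipase, which takes over at diacylglycerol, had 3.44, 3.04 and 3.34 CPM and 3.98, 3.56, 3.45 and 3.63 CPM. The lowest LPL overexpression library lay just above the highest control, yet the log2 difference of 0.16 (SE 0.12) did not pass (adjusted p = 0.302 in edgeR).

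**Figure D4:**
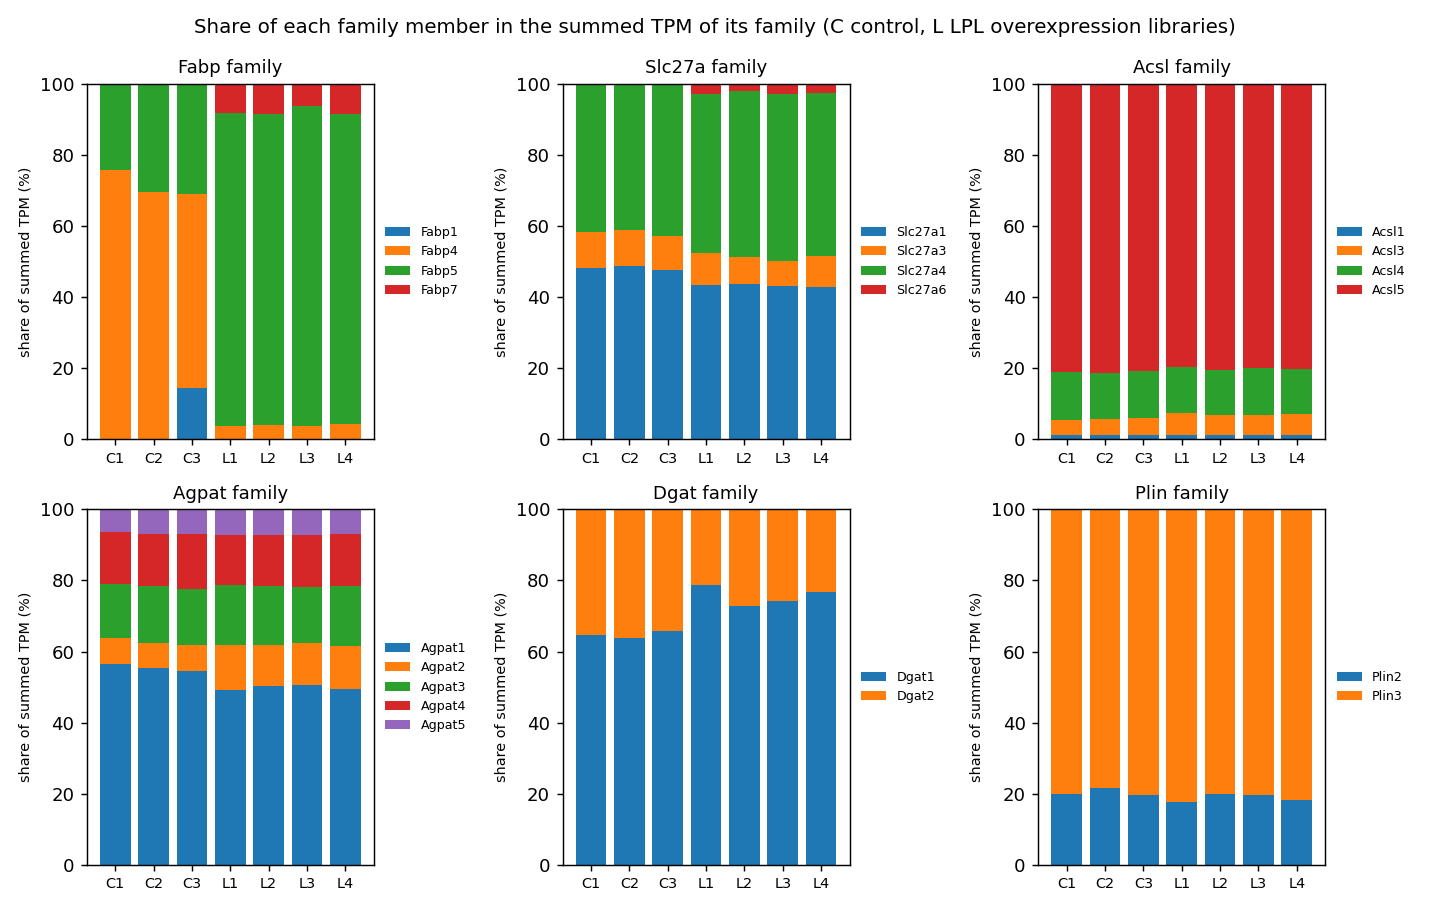
Share (%) of each gene in the summed TPM of its family in control (C1 to C3) and LPL overexpression (L1 to L4) libraries, for members with at least 1% in some library. Fabp5 goes from 28.6 ± 3.71% to 88.1 ± 1.28% of a family that is small in the controls (1.62 ± 0.104 TPM) and Dgat1 from 64.8 ± 1.08% to 75.6 ± 2.68%, while the Plin shares overlap between the groups.

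The rest of the pathway was read from 92 other genes, of which 63 were tested, 20 rose, 12 fell and 31 did not pass, 50.8% changed in all (43.2% of all genes). Of 7 tested genes of uptake and activation, 4 rose and 1 fell. Slc27a6, a transport protein, had 0 control reads and 38, 30, 38 and 37 reads in LPL overexpression replicates 1 to 4, at least 36.3-fold above the control floor. Fabp7, the brain-type binding protein, likewise had 0 control reads and 23, 30, 18 and 27, at least 24.4-fold more. Dbi, which encodes the acyl-CoA binding protein, rose from 86.5 ± 2.41 to 115 ± 2.90 CPM, and Acsbg1, a bubblegum-type synthetase, fell from 1.80 ± 0.110 to 0.773 ± 0.193 CPM. Of the other transport and binding proteins, Fabp2 and Fabp6 had no read in any library. In the libraries with Slc27a6 and Fabp7 reads the pigment cell markers summed to 1342 CPM or more, and which cells gave those reads was not tested.

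Among 27 tested genes of further oxidation, carnitine and peroxisome steps, 6 rose and 5 fell, 40.7% against 43.2% of all genes. For the triglyceride synthesis and droplet genes that follow, the shares changed were 45.5% and 62.5%. Acot13, a thioesterase, rose from 15.5 ± 0.716 to 18.6 ± 0.196 CPM and Acad11, a dehydrogenase, from 17.8 ± 0.395 to 20.7 ± 0.983 CPM, whereas Acot9 fell from 158 ± 5.05 to 139 ± 2.47 CPM. The others that fell were Slc25a20 and Crat, of the carnitine steps, Hsd17b10 and Pdk1, with log2 fold changes between -0.15 and -0.11. The call of Slc25a20 ended in 7 of the 17 alternatives and that of Crat in 6. Cpt1b, the muscle isoform, had at most 21 reads in a library. Of 11 tested triglyceride synthesis genes, 2 rose and 3 fell. Gpd1, which makes glycerol 3-phosphate from a glycolytic intermediate, had 15, 15 and 12 reads in the controls and 91, 113, 94 and 97 with LPL overexpression, a log2 difference of 2.81 (SE 0.18), while its mitochondrial counterpart Gpd2 fell from 133 ± 0.654 to 113 ± 3.62 CPM. The lipid phosphate phosphatase Plpp2 fell from 339 ± 7.65 to 285 ± 2.74 CPM and Plpp3 rose from 63.4 ± 1.95 to 71.2 ± 1.75 CPM. Of 8 tested droplet genes, 4 rose, Aup1, Hsd17b11, Faf2 and Spg20, with log2 fold changes between 0.15 and 0.21, and 1 fell, Rab18 (adjusted p = 0.0377 in edgeR), a call that ended in 13 of the 17 alternatives, DESeq2 included (adjusted p = 0.0948). With any 1 of the libraries left out, apart from LPL overexpression replicate 3, Rab18 did not pass.

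Of 10 tested PPAR regulators, 4 rose and 2 fell, 60.0% against 43.2% of all genes. Ppard, the receptor gene with the highest level per length of the 3 PPARs here (15.9 ± 0.688 TPM in the controls), rose from 22.5 ± 0.846 to 26.2 ± 0.868 CPM, and its partner Rxra from 40.6 ± 0.895 to 53.2 ± 3.06 CPM. Pparg was at 2.88 ± 0.289 and 3.28 ± 0.404 CPM (adjusted p = 0.238 in edgeR) and Ppara had at most 2 reads in a library. Ppargc1a, the coactivator PGC-1α, had 9, 14 and 17 reads in the controls and 59, 67, 66 and 61 with LPL overexpression, a log2 difference of 2.24 (SE 0.21). Klf15, a transcription factor of lipid and amino acid metabolism, had 0 control reads and 52, 62, 49 and 67, at least 57.6-fold above the floor. Nrip1 and Foxo1 fell, with log2 fold changes of -0.16 and -0.12. That of Nrip1 ended on TPM values (adjusted p = 0.0948 in limma). The call of Foxo1 ended without control replicate 2 (adjusted p = 0.0516) or LPL overexpression replicate 2 (0.106). It also ended with library size alone (adjusted p = 0.104 in edgeR) and on TPM values (adjusted p = 0.191 in limma). The same 4 libraries carried the pigment cell genes, whose part in the reads of Ppargc1a and Klf15 was not tested.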

How the data were processed

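Total RNA of 7 MS-1 libraries, prepared with the TruSeq stranded total-RNA kit per the labels' protocols, was aligned by the authors with STAR to mm10, per the submitters' processing notes. Not given in the sources used here were the STAR version and the gene annotation. The deposited counts are whole reads per gene and orientation, not normalized, per the file headers. Reverse-orientation reads, between 97.0% and 97.1% of oriented reads, were used. The deposited TPM values sum to 1000000 over all 49585 genes and use the files' exonic lengths, and they serve as levels. Coordinates are 1-based, on mm10.

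From the counts, edgeR 4.0.16 in R 4.3.3 was fitted to all 7 libraries (TMM, filterByExpr, group as the only term, robust quasi-likelihood F test), with p-values adjusted by Benjamini-Hochberg over the 13639 genes tested and calls made below 0.05. Each SE was obtained by dividing the size of the log2 difference by the root of its F statistic, and CPM values are TMM-scaled. A group with no read was given a floor of 3 counts, which covers counting error only, since without molecular identifiers reads can be copies of 1 molecule. The fit was tested on simulated data, with 50 genes changed at each fold, none of them from the lowest levels. It recovered 42% of 1.1-fold changes, 96% of 1.25-fold changes and 100% of 1.5-fold and 2-fold changes. A gene at the simulated levels that did not pass can thus have changed by about 1.1-fold. Genes at lower levels or with a wider spread can have changed by more. Fabp4 (SE 0.18 on the log2 scale) and Pdk2 (an estimate of 1.28-fold, SE 0.17) are examples that did not pass.

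Genes, lists and motifs were chosen with earlier results of these data known, and the motifs with their matches seen. Values in every library are given for 12 genes picked by role (Cd36, Fabp4, Fabp5, Acsl1, Cpt1a, Acadm, Hadha, Dgat1, Dgat2, Plin2, Pnpla2 and Lipe), for changed genes of at least 0.3 on the log2 scale and for the most abundant gene of each step, and group means with SD or ranges for the rest. From the 5 lists of other genes, those described first are the changed ones with the largest log2 fold change, at most 4 a list, of which 1 is not reported here. Symbols of 4 list members were replaced by those in the files. Alternatives were DESeq2 1.42.0, upper-quartile factors, library size alone, no filter or a stricter one on low counts, reads of both orientations, limma 3.58.1 on log2(TPM + 0.5), no robust dispersion, the replicate number as a block, and each library left out. The deposited counts over both orientations had lower totals than the sense counts (26761472 against 27386023 in control replicate 1). They are therefore not a sum of the orientations. The fit of 6 libraries without the block was chosen after seeing the data. Copies of near-identical sequence can share reads, and Fabp5 has a relative, Fabp5l2, listed at 0 reads in all 7 libraries. FPKM columns and the other TPM columns were not used.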

Additional observations from a re-analysis of the deposited data

Results flagged for a closer look

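Acadm, the medium-chain acyl-CoA dehydrogenase gene, was at 56.6 CPM in LPL overexpression replicate 4, apart from the other 3 libraries of the group at 61.8 to 62.7 CPM. The gap to the nearest library was 0.849 of the range of the 4, above Dixon's critical value for 4 samples at the 95% level. It was the 1 such gene of the 51 tested, and chance alone flags about 1 in 20 groups. Without that replicate the log2 fold change was -0.14 (adjusted p = 4.03e-04 in edgeR), a fall as in the full set.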

How the results depend on the processing

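Over the 17 alternatives the counts of fatty acid genes kept within 1.5 times those reported, with 16 to 24 higher and 7 or 8 lower, and 21 of the 27 changed genes held their call in each. The 6 that lost it in some were Acsl4, Eci1, Lpin1, Lpin3, Dgat1 and Plin2, and none changed sign. The exception among the steps was the count of triglyceride synthesis genes that rose, 4 as reported and 1 to 4 when each library was left out, with 1 without control replicate 2. Over the other pathway genes, limma on log2(TPM + 0.5) gave 7 lower against 12 as reported, and the cause was not tested. Of the 24 fatty acid genes that did not pass, 5 passed in some alternative (Slc27a4, Acads, Hadhb, Decr1 and Etfb). No pairing by replicate number was seen: correlations of same-numbered deviations from group means across genes were -0.02, -0.04 and 0.02. Counting error also enters these deviations, so whether same-numbered libraries shared a culture or day cannot be told from them. With the replicate number as a block over replicates 1 to 3, 21 fatty acid genes were higher and 7 lower, against 20 and 8 for the same 6 libraries without it. Acsl4 (adjusted p = 0.052 with the block) lost its call. Genes of a few reads, such as Cd36 and G0s2, are limited by depth.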

Other observations

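Pyruvate dehydrogenase kinases set how far glucose carbon enters mitochondria beside fatty acids, and the abundant ones here were Pdk1 and Pdk3. Pdk1, a hypoxia-inducible kinase, fell from 70.3 ± 2.60 to 63.5 ± 1.49 CPM, a log2 difference of -0.15 (SE 0.04) (adjusted p = 5.83e-04 in edgeR). Pdk3 was at 42.1 ± 1.22 and 44.7 ± 0.783 CPM and did not pass (adjusted p = 0.0728 in edgeR), and Pdk2 was at 1.62 ± 0.331 and 2.07 ± 0.270 CPM (adjusted p = 0.0835 in edgeR). Pdk3 passed in edgeR with upper-quartile factors (adjusted p = 0.0223), library size alone (0.00768) and the replicate block (0.0366), and on TPM values in limma (0.0114). It also passed without LPL overexpression replicate 4 (adjusted p = 0.0367 in edgeR), and Pdk2 passed without control replicate 1 (0.0236). The call of Pdk1 held in all 17 alternatives. Of the acyl-CoA thioesterases, which release free fatty acid from acyl-CoA, Acot7 was at 131 ± 3.99 and 132 ± 4.25 CPM and Acot8 at 11.4 ± 0.970 and 11.3 ± 1.24 CPM, neither of which passed. Acot1, a cytosolic form with near-identical relatives, had 0 control reads and 2, 5, 5 and 5 reads with LPL overexpression, too few to be tested.

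Reads in the orientation opposite to the gene were under 1% of oriented reads for 45 of the 51 tested fatty acid genes. They were most frequent at Lipe, with 23.6 to 30.6% in the controls and 18.3 to 30.4% with LPL overexpression. Acaa1a had 10.7 to 12.2% in the controls and 12.0 to 14.5% with LPL overexpression, and Agpat2 had 11.9 to 13.7% in the controls and 8.33 to 11.3% with LPL overexpression. These reads were not counted in the levels given.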
